A study of Homo sapiens with 6 samples.

Results

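The genes described are 41 regulators and core factors of pre-mRNA splicing: the SR proteins named SRSF (10 genes), the heterogeneous nuclear ribonucleoproteins or hnRNPs (19 genes), the subunits of splicing factor 3 (9 SF3A and SF3B genes) and the U2AF genes (3 genes). Members were taken by current gene symbol, without pseudogenes and antisense genes, among 19775 genes that had at least 1 probe set naming that gene and no other. The choice of these families was made with earlier results of these data known. Their 144 probe sets were all used. Of the 41 genes, 6 had 1 probe set and 35 had 2 or more, with 9 at most. The symbol pattern also caught HNRNPA3P1, a pseudogene, and HNRNPD-DT, a transcript divergent to HNRNPD, and both were left out. SRSF2, SRSF9 and HNRNPH2 are not among the 41, because their probe sets name several genes. Their values are given beside those of their relatives.

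RNA was taken from T47D, an established human breast cancer cell line of the luminal, oestrogen receptor positive kind. GDC-0941 is an inhibitor of class I PI3 kinases, which signal growth factor input to AKT and mTOR. The labels describe 3 arrays of cells given GDC-0941 (1 mM as the labels spell it, a unit that could not be checked) for 6 hours, and 3 arrays of control cells whose agent is given as none. The labels do not state whether controls received the solvent or whether the 3 samples of a group were separate cultures. A p-value therefore measures only the spread among these arrays, and that spread may be technical. All 6 arrays came from 1 cell line in the same medium with 10% fetal bovine serum.

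Splicing is carried out by small nuclear ribonucleoproteins. U2AF2 and U2AF1 mark the polypyrimidine tract and the AG at the end of an intron, and SF3A and SF3B then hold the U2 particle on the branch site. SR proteins mostly bind exons and promote their inclusion, hnRNPs often oppose them, and the SRPK and CLK kinases phosphorylate the arginine and serine rich tail of SR proteins. Many genes for SR proteins and hnRNPs are known to make further transcripts, with a retained intron or an extra exon carrying a stop codon, by which they limit their own product. For this reason all probe sets of a gene were compared, although the sources used here do not say which transcript each probe set reads.

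The promoter windows of the 3 genes with the largest falls are shown, since the motif counts below refer to such windows. Each is the 250 bases before the gene's start in RefSeq (assembly GRCh38.p14), 5′ to 3′ on the gene's strand. HNRNPAB lies at chr5:178204283-178204532 (plus strand), SRSF7 at chr2:38751495-38751744 (minus strand) and SF3B4 at chr1:149927804-149928053 (minus strand). Capitals mark matches to CCAAT in HNRNPAB and to the ETS-type CCGGAAG in SF3B4. SRSF7 had no match to the motifs searched.
HNRNPAB: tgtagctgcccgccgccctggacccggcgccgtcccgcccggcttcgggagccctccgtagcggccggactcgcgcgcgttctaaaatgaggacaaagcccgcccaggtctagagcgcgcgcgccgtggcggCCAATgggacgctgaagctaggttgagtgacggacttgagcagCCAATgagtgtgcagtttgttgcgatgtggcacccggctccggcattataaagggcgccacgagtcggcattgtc
SRSF7: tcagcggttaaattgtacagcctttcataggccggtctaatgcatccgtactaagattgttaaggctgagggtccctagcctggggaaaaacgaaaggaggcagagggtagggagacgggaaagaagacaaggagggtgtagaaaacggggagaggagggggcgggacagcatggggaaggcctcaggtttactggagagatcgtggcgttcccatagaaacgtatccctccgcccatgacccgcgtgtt
SF3B4: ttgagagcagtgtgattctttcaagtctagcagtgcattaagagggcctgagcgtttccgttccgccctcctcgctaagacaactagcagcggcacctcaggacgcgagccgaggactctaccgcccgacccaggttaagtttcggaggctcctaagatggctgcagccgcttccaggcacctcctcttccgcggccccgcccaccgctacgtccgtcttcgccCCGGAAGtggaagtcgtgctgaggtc

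Such windows were found for 39 of the 41 genes. HNRNPA1 and SF3B3 had none in the table used. Searched on both strands, CCGGAAG was present in 12 windows (30.8%), against 12% of the 15384 tested genes with a window. These 12 include SF3B4, HNRNPD, U2AF2, SRSF4, SRSF5 and all 3 SF3A genes. CACGTG, the core of the E-box bound by MYC, was present in 6 windows (15.4% against 7.8%), CCAAT in 16 (41% against 34.1%), the E2F-type TTTGGCGC or TTTCGCGC in 1 (2.6% against 1.27%), and the FOXO-type GTAAACA in 0 (against 2.3%). Of the 8 windows of genes called lower, 3 held CCGGAAG, 2 held CCAAT and 1 held CACGTG. Of the 3 windows of genes called higher, 0 held CCGGAAG, 1 held CCAAT and 1 held CACGTG. The median share of G and C was 65.6% over the 39 windows and 62.4% over the 15384. A match describes these letters only, and its part in any change was not tested.

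Array medians lay between 7.34 and 7.38 log2 units, and correlations across probe sets were 0.997 to 0.9983 within groups and 0.9917 to 0.9942 between them. The 7 luminal markers were bright in control cells, from 11.62 (FOXA1) to 14.34 (KRT18), and 4 of them were called with GDC-0941, FOXA1 (0.53) and PGR (0.42) higher and KRT8 (-0.23) and KRT18 (-0.21) lower. Of the basal or mesenchymal markers, 3 were measured and lay between 6.25 (KRT14) and 8.20 (VIM). The 5 immune, endothelial or fibroblast markers ranged from 6.23 (PTPRC) to 10.40 (COL1A1), and 1 of them, COL1A1, was called higher with GDC-0941. The 3′ minus 5′ difference of the ACTB control probe sets was 0.388 to 0.415 on treated arrays and 0.205 to 0.300 on control arrays. The groups did not overlap in it. For the GAPDH control probe sets the groups overlapped, at -0.128 to -0.101 on treated arrays and -0.151 to -0.124 on control arrays. The part of these differences and of the marker changes in the results was not tested. In bulk RNA, fewer cells of a kind and less RNA per cell cannot be told apart.

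In gene values, taken from each gene's brightest probe set, 13 of the 41 splicing genes passed limma's test at an adjusted p of 0.05 (31.7%, against 27.8% of all 19775 genes). Of the 41, 40 lay above the median level of probe sets, where 37.7% of all genes were called. A fit on such genes alone called 15 of 40 splicing genes and 43.9% of all such genes. This cut matched the level only in part. The median level was 11.54 for the 41 genes and 9.18 for all genes above the cut. Of the 41, 28 lay above percentile 90 of level among all genes. Of the 13, 4 rose (all genes 12.1%) and 9 fell (all genes 15.6%). The largest change was a 2.15-fold fall of HNRNPAB, and the largest rise was 1.57-fold, for HNRNPA1. The median log2 difference was -0.01 over the 41 genes and -0.02 over all genes, both close to 0. Centring the arrays on the 18 hybridisation-control probe sets put the all-gene median at 0.15, and the split turned to 13 higher and 4 lower, and over all genes the share of calls that were higher went from 43.7% to 86.4%. HNRNPAB, SRSF7, SF3B4 and U2AF1 were the 4 still lower. The mean of the hybridisation-control probe sets was 10.72, 10.65 and 10.86 on the treated arrays and 10.94, 10.90 and 10.90 on the controls. In this mean the treated arrays differed more among themselves than the controls did. Without GDC-0941 replicate 3, or without control replicate 2, 2 of the 4 rises stayed called, those of HNRNPA1 and HNRNPUL1. For 21 genes the 3 treated arrays lay wholly on one side of the 3 controls (all genes 41.5%), 9 of them above (17.5%) and 12 below (24%). Among all genes above the median level of probe sets, 7100 of 13217 had their groups apart in this way, 2977 above and 4123 below.

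**Figure D1:**
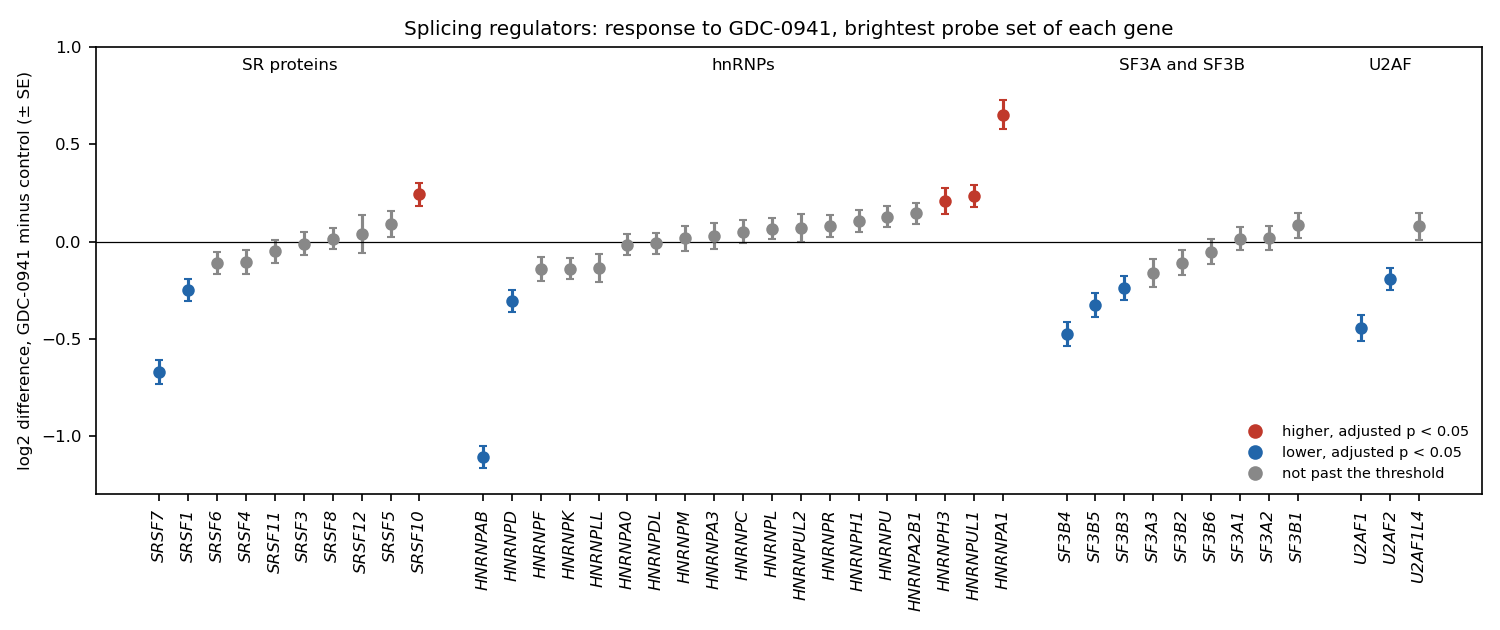
Log2 difference (GDC-0941 minus control) of the 41 splicing genes by family, with the standard error from limma as bars; red and blue points passed the adjusted p of 0.05 and grey ones did not. HNRNPAB lies lowest at -1.11 and HNRNPA1 highest at 0.65, while 28 genes are grey.

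Among the SR proteins, 1 of 10 rose and 2 fell (30% called, all genes 27.8%), with a median of -0.03. With hybridisation-control centring 2 rose and 1 fell (median 0.14). Without that centring, 37.7% of all genes above the median level of probe sets were called. SRSF7 is an SR protein that also serves as an adaptor for mRNA export. Its brightest probe set read 11.94, 11.78 and 11.85 on the treated arrays and 12.53, 12.47 and 12.59 on the controls. Every treated value was below every control value, a 1.59-fold fall (log2 difference -0.67 ± 0.062, SE, n = 3 and 3, adjusted p = 1.40e-05). As the mean of its 4 probe sets the fall was smaller (-0.24) and stayed called.

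SRSF1, the founding member of the family, read 12.31, 12.18 and 12.25 with GDC-0941 and 12.50, 12.47 and 12.51 in controls. The groups did not overlap, and the fall was 1.19-fold (-0.25 ± 0.057, adjusted p = 5.92e-03), but the mean of its 8 probe sets was at -0.09 and did not pass (adjusted p = 0.216). SRSF10, which represses splicing when dephosphorylated, was the 1 SR gene that rose. It read 11.10, 10.99 and 11.12 with GDC-0941 against 10.84, 10.77 and 10.87 in controls, without overlap (0.24 ± 0.060, adjusted p = 9.40e-03). That call was lost without GDC-0941 replicate 3 (adjusted p = 0.0515) or without control replicate 2 (adjusted p = 0.0528).

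The other 7 SR genes did not pass the test, with log2 differences from -0.11 (SRSF6) to 0.09 (SRSF5). SRSF3 and SRSF8 lay near 0 at -0.01 and 0.01. SRSF12 was at 0.04 and was the dimmest of the 41, with a mean of 6.42 log2 units against a median of 7.36 over all probe sets; the other 40 lay above that median. SRSF2, outside the 41 because its probe sets also name the microRNA gene MIR636, was lower on all 3 of its probe sets (-0.54, -0.69 and -0.79, limma over all probe sets, adjusted p = 1.89e-04, 3.84e-05 and 3.45e-05). Both SRSF9 probe sets, which also name GATC, were at -0.12 and -0.13 and did not pass.

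The hnRNPs split both ways: 3 of 19 rose and 2 fell (26.3% called, all genes 27.8%), with a median of 0.05. Under hybridisation-control centring 9 rose and 1 fell (median 0.22). Without that centring, 37.7% of all genes above the median level of probe sets were called. HNRNPAB, which has 2 RNA-binding domains and takes part in mRNA transport, had the largest fall of the 41 genes. It read 11.89, 11.77 and 11.86 on the treated arrays and 12.95, 12.93 and 12.96 on the controls. The treated arrays sat about 1 log2 unit under controls that differed little among themselves (-1.11 ± 0.057, adjusted p = 3.12e-07). HNRNPD, also called AUF1, binds AU-rich elements that govern mRNA decay. It read 12.09, 12.00 and 12.00 with GDC-0941 against 12.32, 12.32 and 12.38 in controls, again without overlap (-0.30 ± 0.056, adjusted p = 1.61e-03). The mean of its 9 probe sets was at -0.15 and stayed called.

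HNRNPA1, a well-known antagonist of SRSF1 at splice sites, read 12.41, 12.18 and 12.25 with GDC-0941 and 11.52, 11.65 and 11.72 in controls. This was a rise without overlap (0.65 ± 0.075, adjusted p = 6.22e-05), but it stands on probe set 214280_x_at alone. The gene has many processed pseudogenes, and an x_at name marks probes that may read related sequences. Its 2 other probe sets were at -0.10 (222040_at, adjusted p over all probe sets 0.390) and -0.23 (221919_at, adjusted p 0.0457, a call lost without GDC-0941 replicate 2 or 3 or control replicate 2 or 3). A further pair of probe sets that name HNRNPA1 together with its pseudogenes were brighter still and read 0.10 and 0.09, neither past the test (adjusted p = 0.273 and 0.368). The direction of HNRNPA1 mRNA is therefore uncertain in these data. Among the called genes, the values of SRSF7, SRSF10, HNRNPD and SF3B4 also came from x_at probe sets.

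HNRNPUL1, a relative of HNRNPU linked to the DNA damage response, rose by 0.24 ± 0.057 (adjusted p = 7.95e-03), from 11.20, 11.21 and 11.12 in controls to 11.46, 11.39 and 11.39. HNRNPH3, of the family that binds G-rich sequence, was called at 0.21 ± 0.067 (adjusted p = 0.0376), from 11.16, 11.07 and 11.16 to 11.45, 11.24 and 11.32. Neither gene's groups overlapped. The HNRNPH3 call was lost without any 1 array other than GDC-0941 replicate 2, its other 3 probe sets lay at -0.13, -0.08 and -0.08, and in the fit over all probe sets it did not pass (adjusted p = 0.0640). HNRNPH2, whose probe set also names RPL36A-HNRNPH2, was higher by 0.26 in that fit (adjusted p = 0.0215).

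The remaining 14 hnRNP genes did not pass. HNRNPK, which binds C-rich sequence, and HNRNPF were each at -0.14 with treated arrays below the controls. HNRNPA2B1 (0.15), HNRNPU (0.13), HNRNPH1 (0.11), HNRNPR (0.08) and HNRNPL (0.07) had treated arrays above the controls. HNRNPC, which coats U-rich stretches of introns, was at 0.05, HNRNPM at 0.02, HNRNPA3 at 0.03, HNRNPUL2 at 0.07, HNRNPDL at -0.01, HNRNPA0 at -0.02 and HNRNPLL at -0.14.

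**Figure D2:**
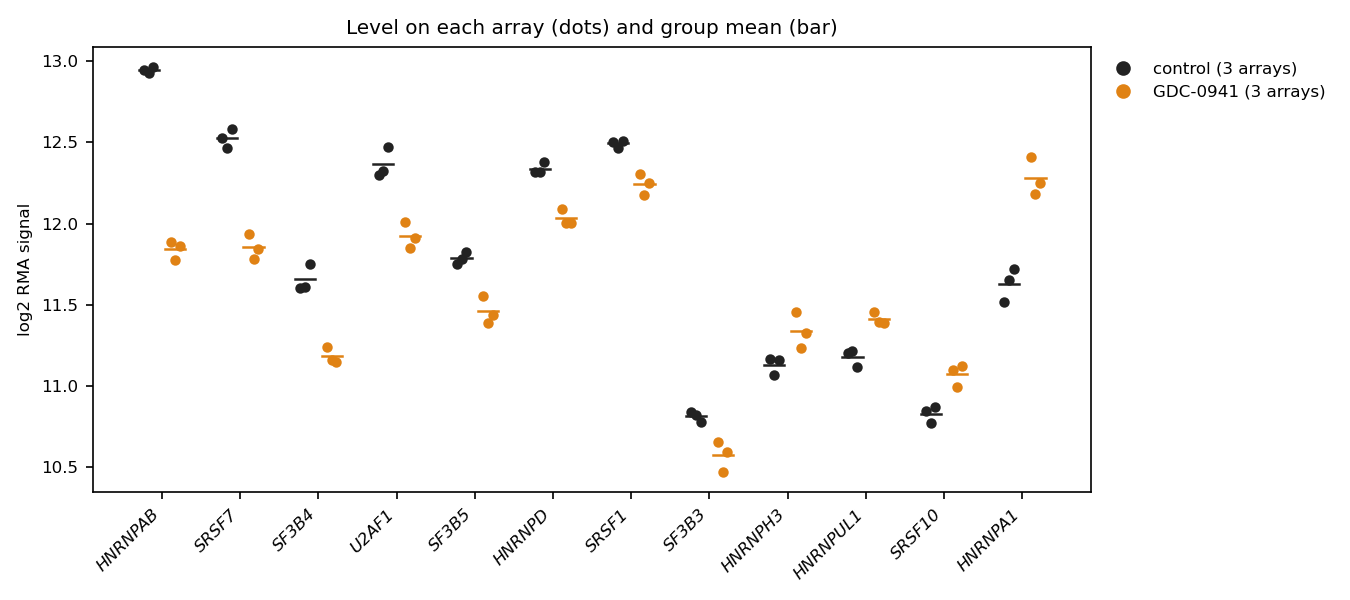
Log2 RMA signal of each array (dots) and group mean (bars) for the 8 largest falls and the 4 rises, 3 GDC-0941 and 3 control arrays per gene. In each gene drawn the treated arrays lie on one side of the controls, with means of 11.84 against 12.95 for HNRNPAB and 12.28 against 11.63 for HNRNPA1.

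SF3A and SF3B are the parts of the U2 particle that grip the branch site. Of the 9 SF3 genes none rose and 3 fell in limma's test (33.3%, all genes 27.8% called and 15.6% lower). At an unadjusted p under 0.05, 0 were higher and 4 lower. The median was -0.11, while under hybridisation-control centring 1 rose and 1 fell and the median was 0.06. All 3 that fell encode SF3B subunits. The 9 SF3 genes all lay above the median level of probe sets, where 37.7% of all genes were called and 2863 of 13217 were lower. SF3B4, which contacts the pre-mRNA just before the branch site, read 11.24, 11.16 and 11.14 with GDC-0941 and 11.60, 11.61 and 11.75 in controls. That is a 1.39-fold fall without overlap (-0.48 ± 0.062, adjusted p = 1.44e-04).

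SF3B5, the small scaffold subunit, read 11.55, 11.39 and 11.44 against 11.75, 11.78 and 11.83 (-0.33 ± 0.061, adjusted p = 1.66e-03). SF3B3, the large scaffold subunit, read 10.65, 10.47 and 10.59 against 10.84, 10.82 and 10.78 (-0.24 ± 0.062, adjusted p = 0.0119). Treated and control arrays did not overlap in either gene. The other probe set of SF3B3, 200688_at, was at -0.07 (adjusted p over all probe sets 0.579), and the mean of both gave -0.15 (adjusted p = 0.0576), so the call rests on the brightest probe set. SF3B1, which holds the branch site adenosine, was at 0.08 and did not pass, and one of its further probe sets, 211185_s_at, was higher by 0.22 (adjusted p over all probe sets 0.0333, lost without any 1 array other than GDC-0941 replicate 2). SF3A1, SF3A2 and SF3A3 were at 0.01, 0.02 and -0.16, and SF3B2 and SF3B6 were at -0.11 and -0.05, none past the test.

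U2AF1 read 12.01, 11.85 and 11.91 on treated arrays against 12.30, 12.32 and 12.47 on controls, a 1.36-fold fall without overlap (-0.44 ± 0.067, adjusted p = 4.24e-04). The mean of its 4 probe sets was at -0.18 and stayed called. U2AF2 fell 1.14-fold (-0.19 ± 0.056, adjusted p = 0.0219), from 10.86, 10.87 and 10.82 to 10.71, 10.63 and 10.63, and its call was lost without GDC-0941 replicate 2 or 3 or control replicate 1 or 2. Read from probe sets with unmarked names (no x or s before the ending at) U2AF2 was at 0.04, and as the mean of all at -0.13 (adjusted p = 0.158), neither past the test. U2AF1L4, a relative of U2AF1, was at 0.08 and did not pass. Of the 3 U2AF genes 2 thus fell (66.7%, all genes 27.8% called and 15.6% lower), with a median of -0.19. With hybridisation-control centring 1 fell and 1 rose (median -0.02). That centring also ended the calls of SF3B5, SF3B3, HNRNPD, SRSF1 and U2AF2. The 3 U2AF genes also lay above the median level of probe sets, where 37.7% of all genes were called and 2863 of 13217 were lower.

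Probe sets of one gene did not always respond alike. Over all 144 probe sets, 35 passed limma's test with adjustment over 54613 probe sets (24.3%, all probe sets 18.8%), 14 higher (8.88%) and 21 lower (9.89%); under hybridisation-control centring these were 38 and 5, and without control replicate 2 the higher ones were 9. Among the 35 genes with 2 or more probe sets, 3 had probe sets called in opposite directions (8.57%), against 85 of 10523 genes (0.808%). Among genes with 4 or more probe sets, 2 of 20 splicing genes were opposed (10%), against 58 of 2728 genes (2.13%). The opposed genes were SRSF11, SRSF1 and HNRNPA1. Under hybridisation-control centring only SRSF1 kept calls in both directions.

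SRSF11, an SR-related protein that meets U2AF at the 3′ splice site, had the widest spread. Probe set 236948_x_at read 7.62, 7.52 and 7.47 with GDC-0941 and 6.24, 6.24 and 6.19 in controls, a 2.48-fold rise (1.31 ± 0.063, adjusted p = 6.06e-07). Probe set 213742_at rose from 7.16, 7.17 and 7.36 to 7.84, 7.79 and 7.75 (0.56, adjusted p = 2.31e-04). The brightest, 200686_s_at, overlapped between the groups, with 11.48, 11.45 and 11.35 against 11.49, 11.44 and 11.50 (-0.05). The fourth, 200685_at, fell by 0.36 (adjusted p = 0.0213), a call lost without GDC-0941 replicate 2 or 3 or control replicate 2. So 2 of the 3 dimmer probe sets of SRSF11 rose, while its gene value, read from the brightest, stayed near 0. The larger rise came from a weak signal, as 236948_x_at had a mean of only 6.88 log2 units. Half-way among all probe sets was 7.36, with 213742_at above it at 7.51 and 200685_at under it at 7.28. As with HNRNPA1, the x_at name means that the probes of 236948_x_at may read related sequences. Whether they read SRSF11 alone was not tested.

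SRSF1 had 8 probe sets, 4 lower and 3 higher. Lower were 227164_at (-0.43), 208863_s_at (-0.38), 201741_x_at (-0.31) and the brightest, 211784_s_at (-0.25). Higher were 226419_s_at (0.29), 229246_at (0.29) and 239384_at (0.27), with adjusted p from 5.59e-03 to 0.0303. The call of 239384_at was lost without GDC-0941 replicate 2 or 3 or control replicate 2 or 3, and that of 229246_at without GDC-0941 replicate 1 or 2 or control replicate 2, while 226419_s_at stayed called in these fits. The remaining one, 201742_x_at, was at -0.17 (adjusted p = 0.0581). Probe set 226419_s_at read 8.99, 8.94 and 8.88 with GDC-0941 against 8.68, 8.63 and 8.62 in controls, and 227164_at read 9.86, 9.73 and 9.81 against 10.33, 10.26 and 10.11. Both separated the groups fully, in opposite directions. With hybridisation-control centring the 3 rises stayed called and 227164_at was the 1 fall still called.

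**Figure D3:**
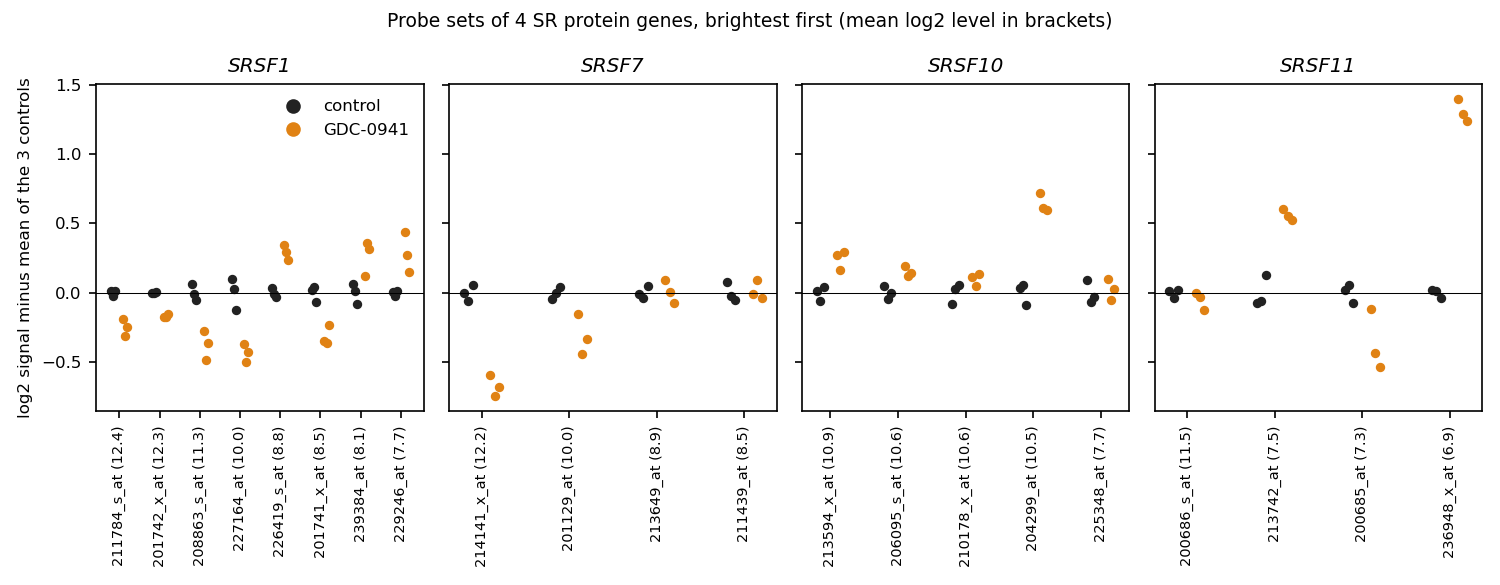
Log2 signal of each array minus the mean of the 3 controls, for every probe set of SRSF1, SRSF7, SRSF10 and SRSF11, brightest first, with the mean log2 level in brackets. The treated arrays of SRSF11 lie from below the controls (200685_at, mean difference -0.36) to far above them (236948_x_at, 1.31).

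The disagreement was tested directly, as the response of each further probe set minus that of the gene's brightest one, over 21316 such pairs of all genes. Among the splicing genes 26 of 103 pairs passed (25.2%, all pairs 12.4%), in 13 genes, 18 with the further probe set higher (5.46%) and 8 lower (6.98%). Pairs of one gene share the brightest probe set and are not independent. Without control replicate 2 there were 16. Of the 33 SR pairs 13 passed, each with the further probe set higher, and none lower (limma, unadjusted p under 0.05: 15 higher and 3 lower), in SRSF1, SRSF3, SRSF4, SRSF7, SRSF10 and SRSF11. In every fit without 1 array 10 of the 13 stayed called. Without GDC-0941 replicate 1 the SR pairs gave 12 higher and 1 lower. Centring an array by a constant cancels in this test.

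A dim probe set can understate a change, so pairs were also read by level. With both probe sets of a pair above the median level, 21 of 79 pairs of the splicing genes were called (26.6%), against 12.7% of such pairs over all genes. When the fit was made on those pairs only, the SR genes had 12 pairs with the further probe set higher and 1 with it lower. The ACTB 3′ minus 5′ difference was higher on all treated arrays (0.388 to 0.415 against 0.205 to 0.300), while that of GAPDH overlapped between the groups. Their part in the differences between probe sets was not tested.

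In SRSF10 the further probe set 204299_at read 10.91, 10.80 and 10.78 with GDC-0941 against 10.22, 10.24 and 10.10 in controls. This rise of 0.64 (adjusted p = 7.18e-05) exceeded that of the brightest probe set by 0.40 ± 0.084 (pair test, adjusted p = 0.0148). SRSF3, the smallest SR protein, had 1 of 6 probe sets called, 232392_at, at 8.90, 8.62 and 8.57 against 8.31, 8.39 and 8.36 (0.34, adjusted p = 0.0133), while its brightest was at -0.01. Treated and control arrays did not overlap in either further probe set.

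SRSF4 showed the same order, with 239511_s_at higher by 0.30 (adjusted p = 0.0168, lost without GDC-0941 replicate 1 or 2 or control replicate 1) and the brightest at -0.10. Its probe sets 242837_at and 239512_at, at 0.24 and 0.17, did not pass alone but differed from the brightest (pair test, adjusted p = 0.0150 and 0.0427). The second of these was lost without any 1 of the 6 arrays, and the first without GDC-0941 replicate 3 or control replicate 1 or 2. In SRSF7 the fall was carried by 214141_x_at (-0.67) and 201129_at (-0.31, adjusted p = 0.0156, lost without GDC-0941 replicate 2 or 3). The other 2 probe sets of SRSF7, 213649_at and 211439_at, were both near 0 (0.01 and 0.02), and they differed from the brightest by 0.68 and 0.69 (pair test, adjusted p = 5.60e-04 and 1.70e-03). In every fit without 1 array these 2 differences stayed called.

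**Figure D4:**
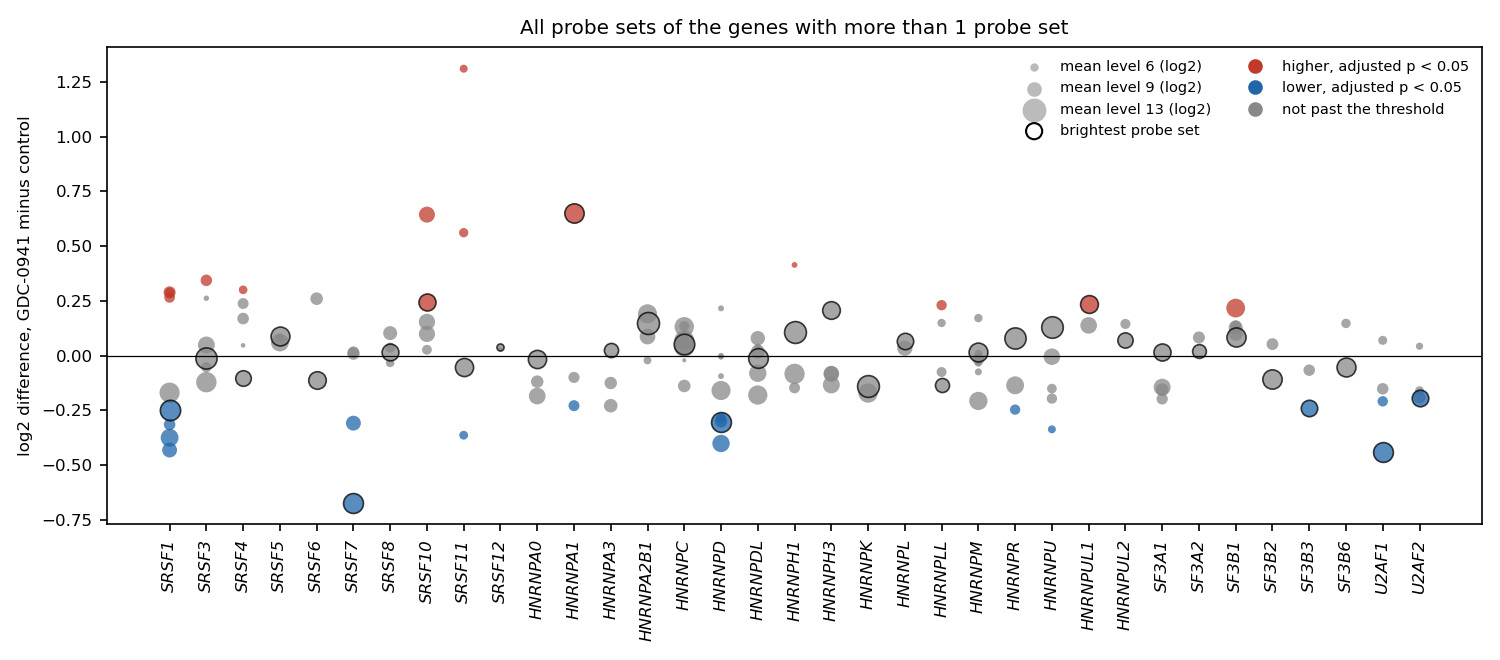
Log2 difference (GDC-0941 minus control) of every probe set of the 35 splicing genes with more than 1; dot size gives the mean log2 level, a ring marks the brightest probe set, and red or blue marks an adjusted p under 0.05. The highest point, 1.31, is the dim 236948_x_at (mean level 6.88) of SRSF11, whose ringed probe set lies at -0.05.

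Among hnRNP genes 8 of 53 pairs were called with the further probe set lower (all pairs 6.98%) and 3 with it higher (5.46%). In every fit without 1 array, 3 of the 8 (both pairs of HNRNPA1 and HNRNPU 235603_at) and 2 of the 3 (HNRNPD 213359_at and HNRNPLL 225385_s_at) stayed called. The 3 HNRNPH3 pairs did not: 210588_x_at was lost without GDC-0941 replicate 2 or control replicate 2 or 3, 207127_s_at also without GDC-0941 replicate 3, and 210110_x_at without any 1 array other than control replicate 1. Besides HNRNPA1 and HNRNPH3, HNRNPU had 235603_at at -0.34 (adjusted p = 6.76e-03) and 225805_at at -0.20 beside a brightest value of 0.13, and HNRNPR had 232004_at at -0.25 (adjusted p = 0.0262) beside 0.08. HNRNPLL had 225385_s_at at 0.23 (adjusted p = 0.0401) beside -0.14. HNRNPD was lower on 4 of its 9 probe sets (-0.40 to -0.28), and 2 dim ones, 213359_at and 239040_at, differed from the brightest with values of 0.22 and -0.01. HNRNPH1 had 1 dim probe set called higher, 213472_at (0.41, adjusted p = 0.0105). In U2AF1, 232141_at and 242499_at, at -0.15 and 0.07, differed from the brightest (-0.44), and 231904_at fell by 0.21 (adjusted p = 0.0444, lost without any 1 of the 6 arrays). The probe set calls of HNRNPLL and HNRNPR were lost in 5 and 4 of the 6 fits without 1 array: HNRNPLL kept its call without GDC-0941 replicate 2, and HNRNPR, whose pair call was lost in the same fits, without GDC-0941 replicate 1 or control replicate 1. Of the pair calls, those of HNRNPU 225805_at, HNRNPD 239040_at and U2AF1 232141_at stood in no such fit other than that without GDC-0941 replicate 1. The SF3 genes had no called pair among 11 (limma, unadjusted p under 0.05: 1 higher and 3 lower).

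The rest of the splicing machinery was read from 10 lists chosen with earlier results of these data known. Of 133 listed genes 122 were measured, and 71 passed (58.2%, all genes 27.8%). The median level of the 122 was 10.42, against 8.20 over all genes. Above the median level of probe sets 37.7% of all genes were called. Of the 71, 21 were higher (all genes 12.1%) and 50 lower (15.6%), a split that turned to 36 higher and 18 lower with hybridisation-control centring. Of the 9 kinases that act on SR proteins or the spliceosome, 4 rose and 2 fell (5 and 1 with hybridisation-control centring, and 1 fall without GDC-0941 replicate 3). SRPK1, the cytoplasmic SR protein kinase, read 9.45, 9.30 and 9.36 with GDC-0941 against 10.23, 10.22 and 10.23 in controls. This 1.81-fold fall (-0.86 ± 0.058, adjusted p = 1.83e-06) left a wide gap between the groups, and its other probe set was at -0.20 (adjusted p over all probe sets 0.0785). CLK1, a nuclear SR protein kinase, rose 1.51-fold, from 8.56, 8.34 and 8.50 to 9.17, 8.92 and 9.11 (0.60 ± 0.079, adjusted p = 1.57e-04). SRPK2 rose by 0.48 ± 0.070 (adjusted p = 3.34e-04). Thus SRPK1 and SRPK2, which share substrates, moved in opposite directions in gene values.

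The core particles were read next, beside 15.6% of all genes called lower. Above the median level of probe sets, 2863 of 13217 genes were called lower. Of the 15 genes of the Sm and LSm rings, which encircle the spliceosomal RNAs, 12 fell and none rose in limma's test (unadjusted p under 0.05: 13 lower and 1 higher), with a median of -0.30, while hybridisation-control centring gave 5 lower and 1 higher. The largest falls were in SNRPF (-0.63), LSM7 (-0.60) and SNRPD1 (-0.59). Of 15 genes of U5 and the tri-snRNP 10 fell and none rose (unadjusted, 10 lower and 0 higher), with 3 lower and 0 higher under that centring, with TXNL4A (-0.51), SNU13 (-0.43) and PRPF4 (-0.43). Of the 7 other U2 and branch site genes 5 fell and none rose (unadjusted, 5 lower and 0 higher), with 2 lower under that centring and 3 without GDC-0941 replicate 3 or control replicate 3. DHX15, a helicase, was at -0.45, SF1, which first binds the branch site, at -0.43, and PHF5A, which sits within SF3B, at -0.26. Read from a probe set with an unmarked name, SF1 was at 0.23 and was called higher (limma, adjusted p = 0.021). As the mean of all its probe sets SF1 was at -0.04 and did not pass (adjusted p = 0.677). The direction of SF1 thus depended on the probe set taken.

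Other lists were mixed (over all genes 12.1% were called higher and 15.6% lower). Above the median level of probe sets, 2126 of 13217 genes were called higher and 2863 lower. Of 6 U1 genes, 2 fell (SNRNP70 -0.50 and LUC7L -0.42) and SNRPA rose (0.22), with 2 each way under hybridisation-control centring. Read from probe sets with unmarked names, SNRNP70 was at 0.03 and LUC7L at 0.15, neither past the test. The SNRPA call was lost without GDC-0941 replicate 1 or 3 or control replicate 1 or 2. Of 20 genes of the catalytic spliceosome and the complex around PRPF19, 5 rose and 3 fell (8 and 1 with that centring). SLU7, a second-step factor, rose by 0.86 (10.68, 10.41 and 10.47 against 9.73, 9.65 and 9.60, adjusted p = 8.48e-06), SYF2 rose by 0.82 (11.06, 10.96 and 11.00 against 10.14, 10.19 and 10.24, adjusted p = 2.31e-06), and BUD31 was at -0.41. In both rises the groups lay apart. Read from probe sets with unmarked names, SYF2 was at 0.16 (adjusted p = 0.248) and BUD31 at -0.10 (adjusted p = 0.232), neither past the test, while as the mean of all probe sets they were at 0.49 and -0.26 and stayed called. Without GDC-0941 replicate 1, 5 genes of this list fell.

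Of 7 minor spliceosome genes, 2 fell (SNRNP25 -0.36, SNRNP35 -0.24) and 1 rose (RNPC3 0.17), against 0 lower and 3 higher with hybridisation-control centring. The RNPC3 call was lost without any 1 array other than GDC-0941 replicate 2, and that of SNRNP35 without GDC-0941 replicate 2 or 3 or control replicate 3. Of 7 measured genes of the exon junction complex and nonsense-mediated decay, the pathway that degrades transcripts with early stop codons, 4 fell and 1 rose, and 0 fell and 1 rose with that centring. UPF2 was at 0.39, EIF4A3 at -0.32 and UPF1 at -0.24, and without GDC-0941 replicate 2 the list had 2 falls. Of 12 other proteins with an arginine and serine rich domain, 1 rose, TRA2A at 0.43, and 4 fell, among them SRRM1 (-0.28) and RSRC1 (-0.24), while that centring gave 3 higher and 0 lower, and 1 fell without GDC-0941 replicate 2 or 3 or control replicate 1 or 2, and 2 without control replicate 3. Of 24 other splicing regulators, 8 rose and 6 fell (13 and 4 with that centring), with 4 higher without control replicate 2 and 5 without GDC-0941 replicate 1 or 3 or control replicate 3. The largest were MBNL2 at 0.64, RBM25 at -0.57 and TARDBP at -0.54, which as means of all probe sets were smaller (0.27, -0.36 and -0.26) and stayed called.

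**Figure D5:**
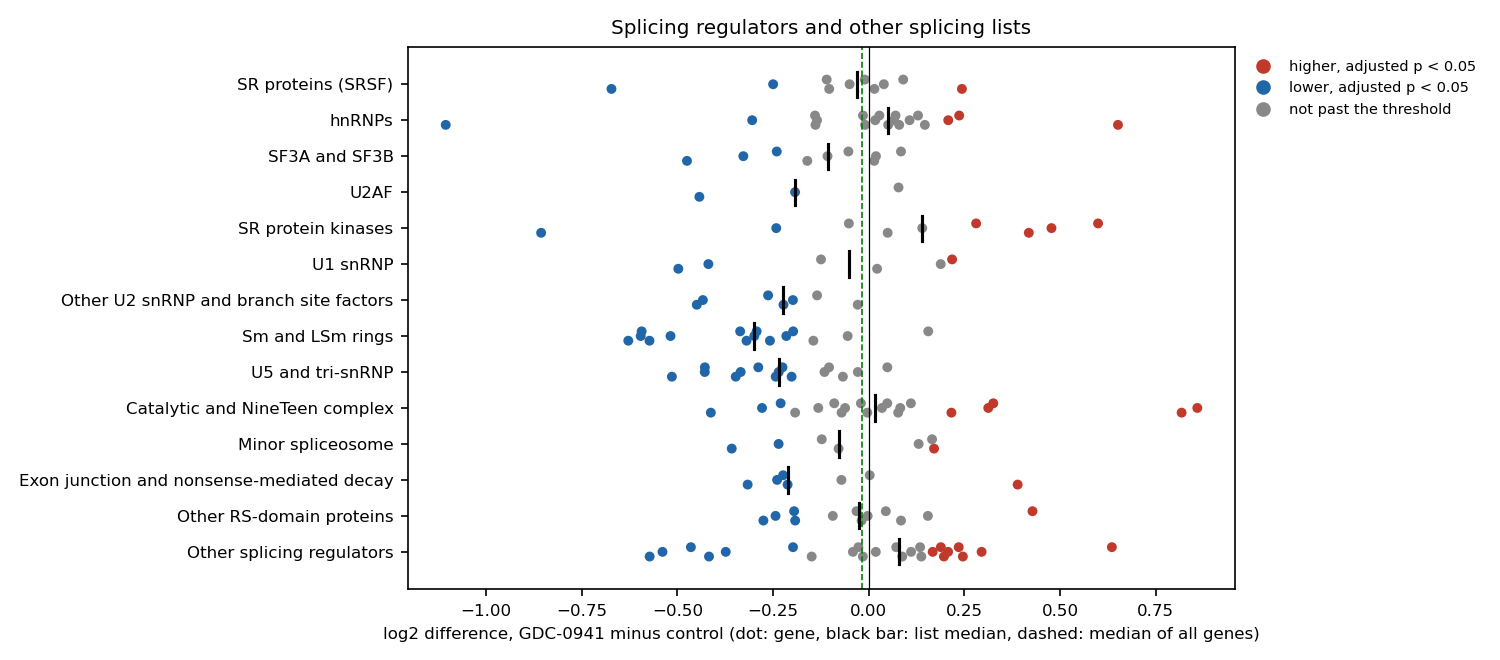
Log2 differences of the genes of each family and list, 1 point per gene, red or blue where the adjusted p was under 0.05; a black bar marks each median and the dashed line the median of all genes. The Sm and LSm list has the lowest median, -0.30, and the SR kinase list the highest, 0.14.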

How the data were processed

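RNA of the T47D cell line was hybridised to 6 Affymetrix arrays, 3 with GDC-0941 and 3 controls, from 6 ug of total RNA per the labels' protocols. The values the authors deposited are on a log2 scale and run from 3 to 14.81. The submitters' processing notes name RMA, a method of background correction, quantile normalization and summary per probe set. For its version and the chip definition: not given in the sources used here. RMA values are relative to the other arrays and carry no detection call, and arrays have no read depth, so their number limits the precision.

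Of 54675 probe sets, 62 controls were left out. Platform annotation named 1 gene for 41091 of the other 54613, several for 1801 and none for 11721. Symbols were updated through Entrez identifiers for 41037 with RefSeq's GRCh38.p14 table. A gene's value was that of its probe set with the highest mean. Groups were compared with limma 3.58.1 (lmFit and eBayes, two-sided) in R 4.3.3, with Benjamini-Hochberg adjustment over 19775 genes, 54613 probe sets or 21316 pairs, called at an adjusted p of 0.05. The scripts were tested on simulated data. Figures were drawn with matplotlib 3.10.9.

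The genes described and the lists were chosen with earlier results of these data known. Array values are given for the 8 largest falls and 8 largest rises (4 passed) among called genes whose groups did not overlap. They are also given for some opposed probe sets and called pairs, and the others have log2 differences only. Each list names its 3 called genes with the largest change. U2AF2 and other probe sets and genes named beyond this were chosen after their values were seen. Alternatives covered scaling, the variance model, array weights, the level filter, the threshold, the probe set taken, each array left out and a replicate block. Those for the pair test were chosen after seeing the data.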

Additional observations from a re-analysis of the deposited data

How the results depend on the processing

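HNRNPAB, SRSF7, SF3B4, U2AF1 and HNRNPUL1 kept their direction and call in gene values under all 17 alternatives. HNRNPAB and SF3B4 have 1 probe set each, so the alternatives in the probe set taken could not change their values. In the fit over all probe sets, 208713_at of HNRNPUL1 lost its call without control replicate 3 (limma, adjusted p = 0.063). The 4 rises among the 41 genes became 13 with arrays centred on hybridisation controls, 7 with trend and robust variance, 8 from the probe set with the largest variance, and 2 to 4 with 1 array left out. The 9 falls became 4 with hybridisation-control centring and 8 to 10 with 1 array left out. The 14 higher probe sets became 38 with that centring, 5 at an adjusted p of 0.01 and 9 to 13 with 1 array left out, and the 21 lower ones became 5, 13 and 14 to 26. The 26 called pairs became 10 at 0.01 and 16 to 26 with 1 array left out.

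The probe set taken turned the sign of some differences, and not all of the turned values passed limma's test at an adjusted p of 0.05. From the brightest probe set with an unmarked name, HNRNPR at -0.247, SRSF11 at 0.561, SRSF3 at 0.344 and SF1 at 0.226 passed. In that reading HNRNPA1 at -0.0998, U2AF2 at 0.0428, SNRNP70 at 0.0292 and LUC7L at 0.152 did not pass. From the largest variance, HNRNPA3 at -0.229, HNRNPLL at 0.230, HNRNPR at -0.247, SRSF11 at 1.31, SRSF3 at 0.344 and SRSF4 at 0.300 passed. There HNRNPH3 at -0.134 did not. As the mean of all probe sets, SRSF11 at 0.364 passed and HNRNPH3 at -0.0229 did not. The cause was not tested.

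With the replicate number as a replicate block, 4932 genes were called against 5488, with 4 and 9 of the 41 higher and lower. Arrays with the same number did not all deviate together (r = -0.344, 0.139 and -0.027), so the numbers were not taken as pairs. The 3 arrays a group limit the precision, and near-background signals compress changes.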
